A study of Homo sapiens with 12 samples.

Results

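The genes described here are 10 of the 58735 genes counted in these libraries. They encode the enzymes that make, recycle and use glutathione: GCLC, GCLM and GSS in synthesis, GSR in recycling, GPX1, GPX3, GPX4, GPX7 and GPX8 as peroxidases, and GLRX as a glutaredoxin. They were chosen by gene name, from general knowledge of the pathway, and every one of the 10 passed the filter on low counts in every comparison. RNA was sequenced from HLE-B3, an immortalized human lens epithelial cell line, in 12 libraries. Wild-type (WT) cells and ATG7 KO cells (labelled Atg7KO) were each collected untreated (0 h) or after 12 h in 200 μM H2O2, with 3 biological replicates in each of the 4 groups. The knockout was made with CRISPR/Cas9 by transfection of a guide against ATG7, a gene that autophagosome formation needs, and clones were then picked. The labels do not say which clone or how many clones the ATG7 KO libraries came from, so that ATG7 loss and other differences of a clone cannot be told apart. All 4 groups share the parental line and the medium with serum. The untreated cells are labelled 0 h and the treated cells 12 h, and when the untreated cells were collected is not stated. The treated cells may thus have been 12 h longer in culture, so that H2O2 and time in culture cannot be told apart.

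Glutathione is a small thiol made from glutamate, cysteine and glycine in a pair of steps that consume ATP. Glutamate-cysteine ligase, formed by the catalytic subunit GCLC and the modifier subunit GCLM, carries out the rate-limiting step, and glutathione synthetase (GSS) completes the molecule. Glutathione peroxidases reduce H2O2 or lipid hydroperoxides with glutathione as the electron donor, glutathione reductase (GSR) restores the oxidized form at the expense of NADPH, and glutaredoxin (GLRX) removes glutathione from protein thiols. The lens is known for a very high glutathione content, and its epithelium is a main site where the molecule is made and kept reduced. Genes of this pathway, GCLM and GCLC among them, are known targets of the transcription factor NRF2, which binds antioxidant response elements.

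The sequences upstream of the ligase genes are shown because both rose in every comparison in which they passed the test. They are the 250 bases before the RefSeq transcription start on GRCh38.p14, 5′ to 3′ on the coding strand, at chr1:93909431-93909680 for GCLM and chr6:53545102-53545351 for GCLC, both on the minus strand. Capitals mark a match to the core of the antioxidant response element, TGACNNNGC, read on either strand.
GCLM: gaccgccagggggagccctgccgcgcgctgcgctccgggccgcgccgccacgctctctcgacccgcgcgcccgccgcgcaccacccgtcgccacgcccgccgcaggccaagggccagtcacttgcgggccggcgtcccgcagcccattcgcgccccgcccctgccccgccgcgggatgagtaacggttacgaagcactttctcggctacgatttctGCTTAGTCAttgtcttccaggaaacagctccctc
GCLC: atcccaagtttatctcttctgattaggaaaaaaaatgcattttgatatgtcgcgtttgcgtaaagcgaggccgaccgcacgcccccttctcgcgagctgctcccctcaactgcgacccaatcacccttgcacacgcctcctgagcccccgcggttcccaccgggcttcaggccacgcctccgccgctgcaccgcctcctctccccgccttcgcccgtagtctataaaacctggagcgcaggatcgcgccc
The match upstream of GCLM, GCTTAGTCA, lies at chr1:93909456-93909464, begins 34 bases before the start and reads as the motif on the opposite strand. RefSeq upstream sequences were matched for 8 of the 10 genes, without GSS and GSR. Of these 8, GCLM was the 1 gene with the core motif in the 250 bases, against 10.9% of all 35116 promoters in the table. The AP-1 motif TGANTCA, which can overlap an antioxidant response element, was in none of the 8 and in 6.57% of all promoters. A match of letters is a description, and no match says only that these letters are not in this window.

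Library totals ran from 15602183 to 17659496 reads on genes. ATG7 mRNA was not lower in the libraries labelled ATG7 KO: it was 2.55 ± 0.313 FPKM in WT cells at 0 h and 3.55 ± 0.205 in ATG7 KO cells at 0 h, and 1.96 ± 0.0411 and 2.19 ± 0.137 after H2O2 (SD, n = 3 in each group). Gene counts cannot show a small edit within a transcript, so the genotype labels could not be checked from these values. FPKM, used for levels here, is fragments per kilobase of gene scaled to the size of the library, and permits levels of different genes to be set side by side. Of 11 lens epithelial markers, SIX3, CDH2 and GJA1 were above 1 FPKM, PAX6 averaged 0.906 FPKM, and FOXE3, CRYAA, CDH1, MAF and PROX1 were under 0.1 FPKM. All 7 mesenchymal markers (VIM, FN1, COL1A1, COL1A2, ACTA2, THY1 and PDGFRB) were above 1 FPKM, 1 of 9 lens fibre markers was (CRYGS), and none of 4 leukocyte markers was, with PTPRC and CD3E under 0.1 FPKM. LYZ averaged 0.467 FPKM, and the 4 leukocyte markers summed to 1.12 to 1.63 FPKM in WT cells at 0 h, 0.208 to 0.413 in WT cells after H2O2, 0.0184 to 0.302 in ATG7 KO cells at 0 h and 0.126 to 0.384 in ATG7 KO cells after H2O2. The summed level of the 7 mesenchymal markers moved with the groups: it was 1123 to 1138 FPKM in WT cells at 0 h, 649 to 679 in WT cells after H2O2, 801 to 880 in ATG7 KO cells at 0 h and 542 to 555 in ATG7 KO cells after H2O2. That of the 11 lens epithelial markers was 189 to 200, 145 to 151, 180 to 211 and 159 to 167 FPKM in the same order. The part of these lists in the results was not tested.

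One library stood apart before any comparison was made. In ATG7 KO replicate 1 at 0 h, 34.5% of 16856 genes differed by more than 0.5 on the log2 scale from the mean of the other replicates of its group, against 5.00 to 5.90% in the libraries of the other 3 groups. Among the glutathione genes it was higher than the other replicates by 0.97 for GPX1, 0.95 for GPX4 and 0.57 for GSS (log2), by 0.49 for GLRX, 0.47 for GPX3, 0.33 for GPX7 and 0.30 for GSR, and by 0.15, 0.11 and 0.08 for GCLC, GCLM and GPX8. Where leaving it out of a comparison changed a call or moved the value by over 1.5 times, both values are given. In these bulk samples, fewer cells of a type and less RNA per cell cannot be told apart. Differences between groups are log2 fold changes from edgeR on the counts, p-values are Benjamini-Hochberg adjusted over all genes tested, and a gene is said to have risen, fallen or changed where the adjusted p was under 0.01. These p-values measure the spread between replicate cultures of 1 line.

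Levels of the 10 genes spanned a wide range. GPX1 and GPX4 lay between 48.8 and 138 FPKM in every library, GPX8, GSR, GCLM and GSS between 10.8 and 51.1 FPKM and GCLC between 4.13 and 7.70 FPKM. GPX3, GLRX and GPX7 were the lowest, between 0.373 and 2.68 FPKM. GPX7 rested on 11 to 34 reads per library, GPX3 on 33 to 139 and GLRX on 89 to 288. Low counts are thus a limit for these 3 genes, and the part of the count in their spread was not tested.

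**Figure D1:**
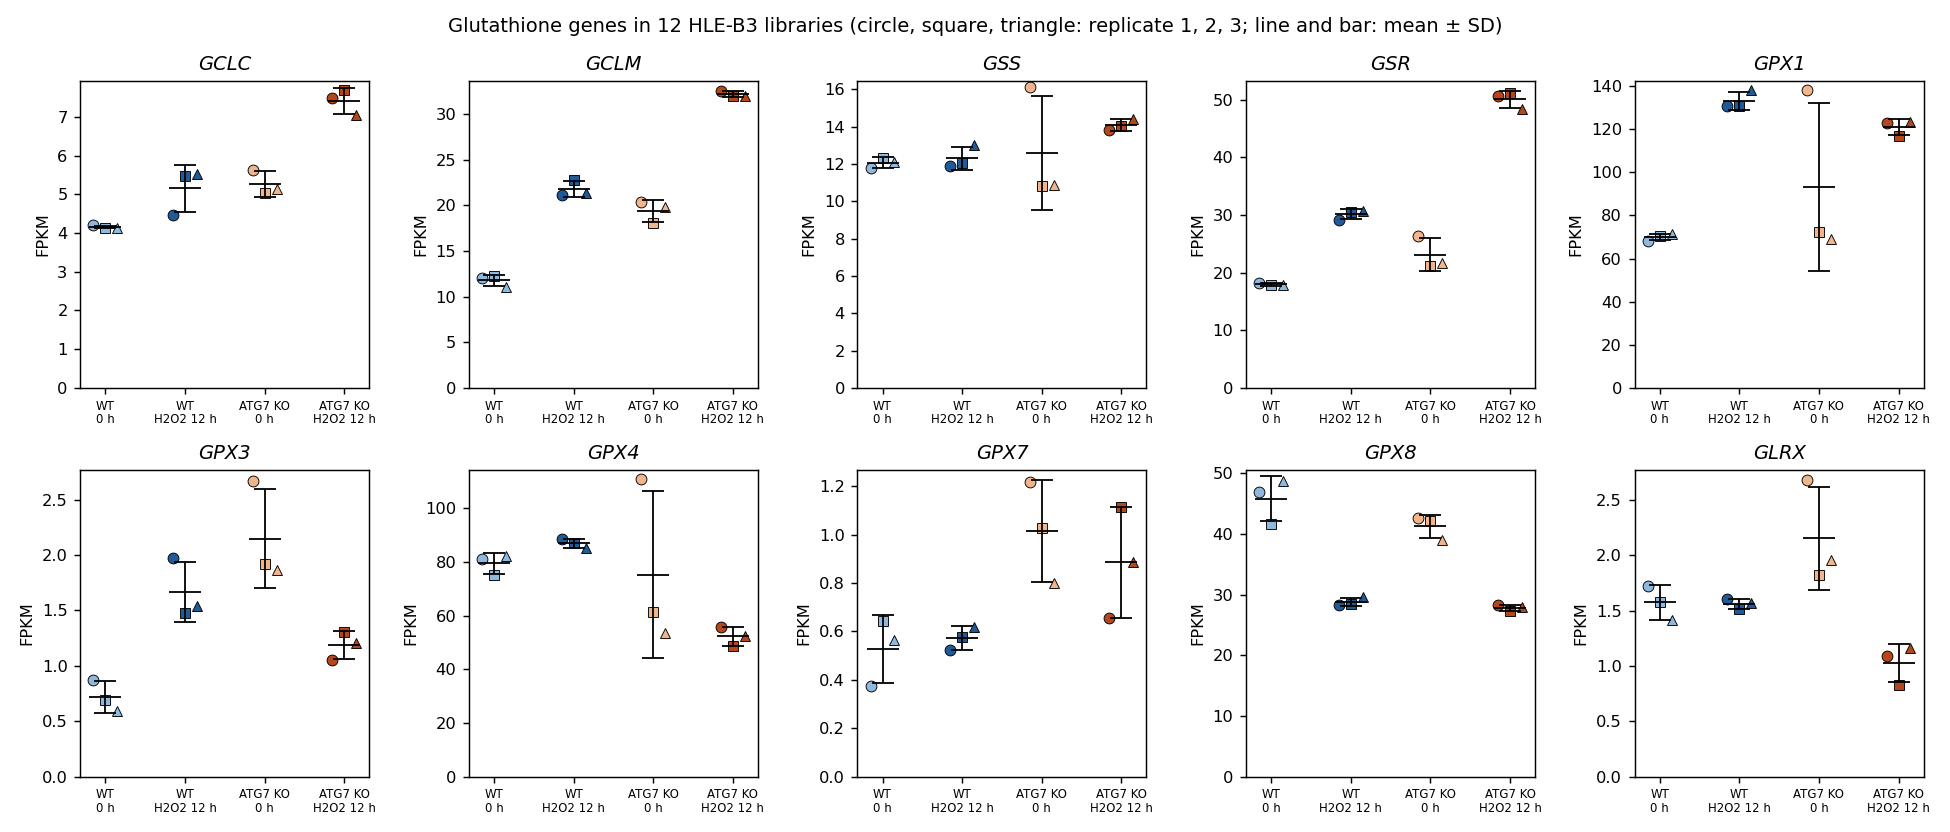
FPKM of each of the 10 genes (y axis, from 0) in the 4 groups (x axis), with 1 marker per replicate and the mean ± SD as lines. In ATG7 KO cells at 0 h, replicate 1 (circle) lies far above the other replicates for GPX1 and GPX4. GCLM and GSR are lowest in WT at 0 h and highest in ATG7 KO with H2O2.

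The first question was how WT cells responded to 12 h of H2O2. Of the 10 genes 6 changed, 5 up (GCLC, GCLM, GSR, GPX1 and GPX3) and 1 down (GPX8), and GSS, GPX4, GPX7 and GLRX did not pass the test. Over all 15913 genes tested, 61.0% passed the same threshold, 30.9% up and 30.1% down, so that a count of 6 of 10 is close to the background. The median log2 fold change of the 10 genes was 0.21, and that of all genes tested was -0.01. The replicates of both groups did not overlap for 7 of the 10 genes, the 6 that changed and GPX4, against 71.4% of all genes tested.

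The response of ATG7 KO cells to H2O2 comprised 5 changes, with GCLC, GCLM and GSR up and GPX8 and GLRX down. Among all 15475 genes tested, 26.0% passed the threshold, 13.6% up and 12.4% down. The median of the 10 genes was -0.02, beside -0.03 for all genes. Without ATG7 KO replicate 1 at 0 h, 9 of the 10 genes passed, 5 up and 4 down, against 58.4% of 16002 genes tested (29.8% up, 28.6% down), with GSS and GPX1 added to those that rose and GPX3 and GPX4 to those that fell, and the median of the 10 genes was 0.15.

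The genotypes were compared before and after treatment. At 0 h, 2 of the 10 genes differed between ATG7 KO and WT cells, GCLM and GPX3, both higher in ATG7 KO, against 7.70% of 15357 genes tested (4.42% higher, 3.28% lower), and the median log2 fold change was 0.38 for the 10 genes and 0.01 for all. Without ATG7 KO replicate 1 at 0 h there were 6, with GCLC and GSR also higher and GPX4 and GPX8 lower in ATG7 KO cells, against 36.2% of 15848 genes tested (18.2% higher, 17.9% lower). After H2O2, 7 of the 10 genes differed, against 55.6% of 15909 genes tested (27.7% higher, 27.9% lower): GCLC, GCLM, GSS and GSR were higher in ATG7 KO cells and GPX1, GPX4 and GLRX were lower. The replicates did not overlap between genotypes for any of the 10 genes after H2O2, against 68.0% of all genes tested without overlap, and the medians were 0.06 for the 10 genes and -0.00218 for all.

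**Figure D2:**
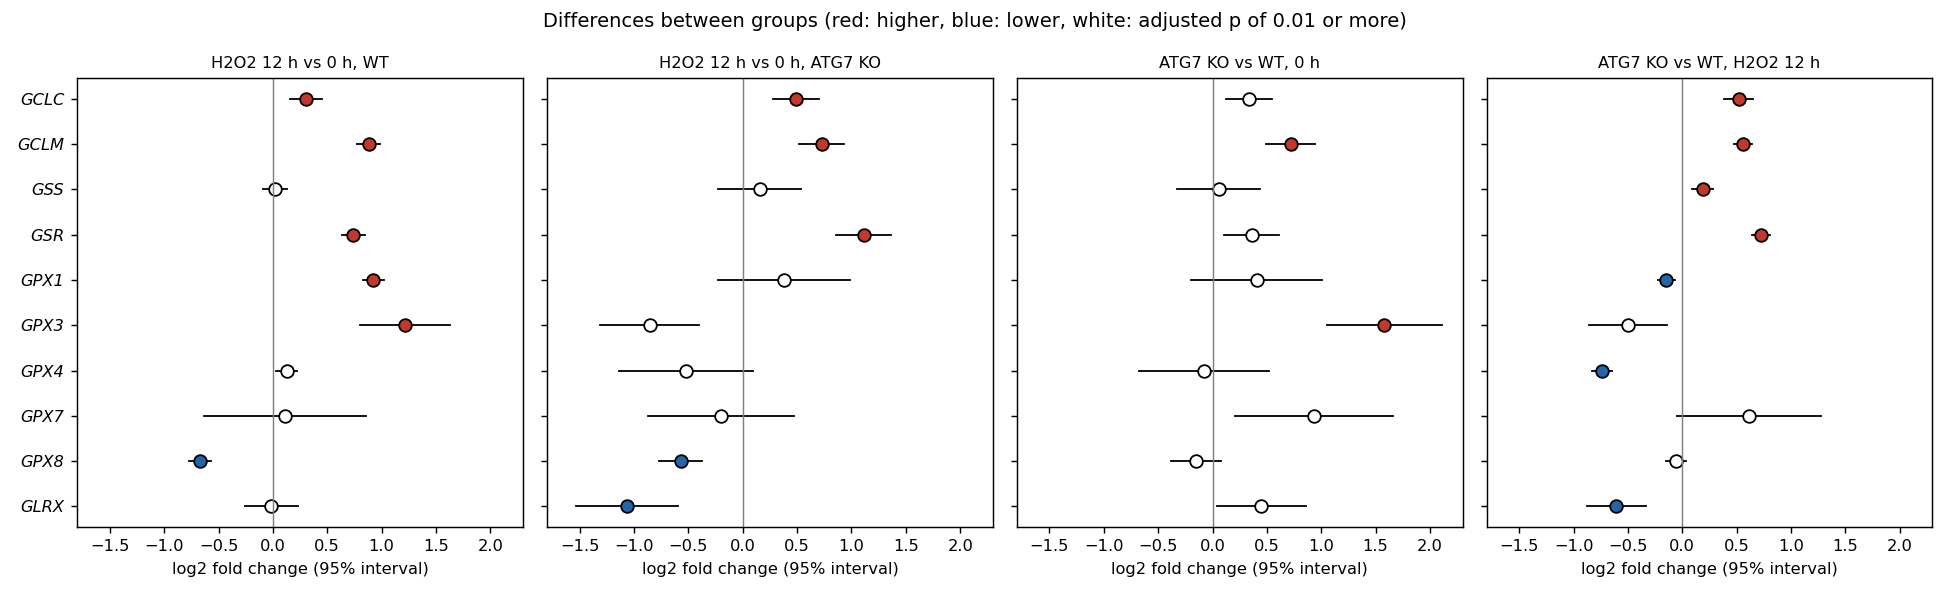
Log2 fold change with its 95% interval (x axis) of each of the 10 genes (rows) in the 4 comparisons of groups (panels), red where the gene was higher and blue where it was lower at an adjusted p under 0.01. After H2O2 the synthesis and recycling genes lie to the right of 0 in ATG7 KO against WT cells, from 0.19 to 0.72, while GPX1, GPX4 and GLRX lie to the left, from -0.15 to -0.74.

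GCLM, the modifier subunit that lowers the amount of glutamate the ligase needs and relieves its inhibition by glutathione, changed in all 4 comparisons of groups (ENSG00000023909, chr1:93885205-93909456, minus strand). In WT cells it was 12.1, 12.2 and 11.0 FPKM at 0 h and 21.2, 22.8 and 21.3 after H2O2. ATG7 KO cells held 20.3, 18.1 and 19.8 FPKM at 0 h and 32.5, 32.0 and 32.0 after H2O2. Every ATG7 KO library was thus above every WT library of the same treatment, every treated library was above every untreated library of the same genotype, and the 4 groups did not overlap with each other. GCLM rose with H2O2 by 0.88 on the log2 scale in WT cells (SE 0.05, edgeR adjusted p = 1.71e-19) and by 0.72 in ATG7 KO cells (SE 0.09, adjusted p = 0.000723). ATG7 KO cells held more GCLM than WT cells by 0.72 at 0 h (SE 0.10, edgeR adjusted p = 0.00311) and by 0.56 after H2O2 (SE 0.04, adjusted p = 2.50e-13). The difference of the responses was -0.15 (95% interval -0.37 to 0.06, edgeR adjusted p = 0.260) and was not past the threshold. The higher level at 0 h lost the threshold in 4 of the 6 fits that left out 1 library.

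GCLC, the catalytic subunit, moved less than GCLM (ENSG00000001084, chr6:53497341-53616970, minus strand). It was 4.20, 4.14 and 4.13 FPKM in WT cells at 0 h, 4.46, 5.48 and 5.52 in WT cells after H2O2, 5.64, 5.02 and 5.14 in ATG7 KO cells at 0 h and 7.49, 7.70 and 7.05 in ATG7 KO cells after H2O2. ATG7 KO cells after H2O2 were highest and WT cells at 0 h lowest, and the groups between them, treated WT and untreated ATG7 KO cells, overlapped. The H2O2 response was 0.30 in WT cells (SE 0.07, edgeR adjusted p = 0.000202) and 0.49 in ATG7 KO cells (SE 0.09, adjusted p = 0.00474), the latter lost in 5 of the 6 fits that left out 1 library. After H2O2, ATG7 KO cells held more GCLC than WT cells by 0.52 (SE 0.07, edgeR adjusted p = 6.63e-08). The difference at 0 h, 0.34, did not pass (SE 0.09, edgeR adjusted p = 0.0402), and it was 0.30 with an adjusted p of 0.00019 without ATG7 KO replicate 1 at 0 h.

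The ratio of GCLM to GCLC within a library does not depend on how libraries are scaled. In WT cells it was 2.88, 2.95 and 2.67 at 0 h and 4.74, 4.15 and 3.86 after H2O2, with no overlap. The ratio in ATG7 KO cells was 3.61, 3.60 and 3.86 at 0 h and 4.34, 4.15 and 4.54 after H2O2, again with no overlap. The group means were 2.83 ± 0.141 and 4.25 ± 0.448 in WT cells and 3.69 ± 0.147 and 4.34 ± 0.196 in ATG7 KO cells (SD, n = 3). The ligase transcripts therefore shifted toward the modifier subunit with H2O2 in both genotypes, and toward it in ATG7 KO cells at 0 h, while the genotypes overlapped after H2O2. On the log2 scale of GCLC over GCLM, the differences were -0.58 for H2O2 in WT cells, -0.24 for H2O2 in ATG7 KO cells and -0.38 for ATG7 KO against WT cells at 0 h, each with a two-sided exact permutation p of 0.1, the smallest that 3 libraries against 3 allow. After H2O2 the genotypes differed by -0.03 (exact permutation p = 0.8).

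**Figure D3:**
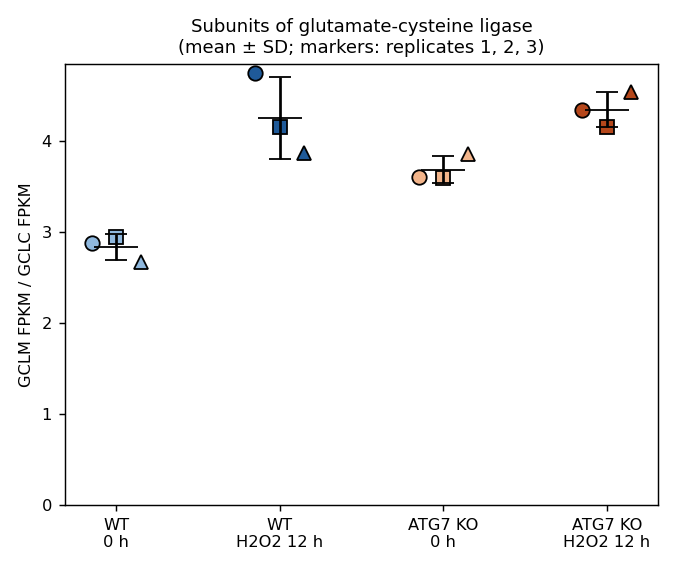
Ratio of GCLM FPKM to GCLC FPKM (y axis, from 0) in each of the 12 libraries by group (x axis), with the mean ± SD as lines. The 3 WT libraries at 0 h lie between 2.67 and 2.95, below all others, and the treated groups overlap, with means of 4.25 and 4.34.

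GSS, the synthetase of the second step, was nearly level in WT cells (ENSG00000100983, chr20:34928433-34956027, minus strand). It was 11.8, 12.3 and 12.1 FPKM in WT cells at 0 h, 11.9, 12.0 and 13.0 in WT cells after H2O2, 16.1, 10.8 and 10.9 in ATG7 KO cells at 0 h, and 13.8, 14.0 and 14.4 in ATG7 KO cells after H2O2. The untreated ATG7 KO group spanned all the others, since its replicate 1 was the highest of the 12 libraries and its other replicates were the lowest. In WT cells the H2O2 response was 0.02 (95% interval -0.09 to 0.13, edgeR adjusted p = 0.715). After H2O2, GSS was higher in ATG7 KO than in WT cells by 0.19 (SE 0.05, edgeR adjusted p = 0.00147), a call lost when all 12 libraries shared 1 fit (0.19, adjusted p = 0.237). The call was also lost under a correction for gene length (0.14, adjusted p = 0.0138) and without treated WT replicate 1 (0.16, adjusted p = 0.0161). The response in ATG7 KO cells was 0.16 (SE 0.16, edgeR adjusted p = 0.459) with all libraries and 0.36 (adjusted p = 2.67e-11) without replicate 1 at 0 h.

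GSR, the reductase that recycles oxidized glutathione, showed the same ranking of groups as GCLM (ENSG00000104687, chr8:30678061-30727999, minus strand). In WT cells it was 18.2, 17.9 and 17.8 FPKM at 0 h and 29.2, 30.6 and 30.7 after H2O2. ATG7 KO cells held 26.4, 21.2 and 21.6 FPKM at 0 h and 50.7, 51.1 and 48.3 after H2O2. No groups overlapped, and the lowest treated ATG7 KO library was well above the highest treated WT library. The H2O2 response was 0.74 in WT cells (SE 0.05, edgeR adjusted p = 1.81e-17) and 1.11 in ATG7 KO cells (SE 0.11, adjusted p = 0.000317). After H2O2, ATG7 KO cells held 1.65-fold the GSR of WT cells (log2 0.72, SE 0.04, edgeR adjusted p = 4.11e-16). At 0 h the genotypes differed by 0.36 (SE 0.11, edgeR adjusted p = 0.0588), which passed without replicate 1 of ATG7 KO cells at 0 h (0.26, adjusted p = 3.35e-05). The responses of the genotypes differed by 0.37 (SE 0.12, edgeR adjusted p = 0.0286), again past the threshold without that library (0.48, adjusted p = 5.85e-09).

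GPX1, the abundant cytosolic selenoenzyme that reduces H2O2, is listed in the table of the authors as a polymorphic pseudogene (ENSG00000233276, chr3:49357171-49358600, minus strand). It was 68.3, 70.3 and 71.5 FPKM in WT cells at 0 h and 131, 131 and 138 in WT cells after H2O2. ATG7 KO cells held 138, 72.2 and 69.0 FPKM at 0 h and 123, 117 and 123 after H2O2. Treated WT libraries were all above treated ATG7 KO libraries, and the untreated ATG7 KO group spanned both, since its replicate 1 was at the level of treated WT cells while its other replicates were at that of untreated WT cells. GPX1 rose with H2O2 by 0.92 in WT cells (SE 0.05, edgeR adjusted p = 2.31e-22). In ATG7 KO cells the response was 0.38 (SE 0.26, edgeR adjusted p = 0.273) with all libraries and 0.77 (adjusted p = 1.64e-49) without replicate 1 at 0 h. The genotypes differed at 0 h by 0.41 (SE 0.26, edgeR adjusted p = 0.309) with all libraries and by 0.02 (adjusted p = 0.817) without that replicate. After H2O2, GPX1 was different between ATG7 KO and WT cells by -0.15, lower in ATG7 KO (SE 0.04, edgeR adjusted p = 0.00205), a small difference that turned to 0.04 (adjusted p = 0.388) under a correction for gene length and had an adjusted p of 0.588 in a fit of all 12 libraries. The processed pseudogene GPX1P1 on the X chromosome held 30 to 71 reads per library and could share reads with GPX1.

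GPX4, the peroxidase that reduces phospholipid hydroperoxides in membranes and restrains ferroptosis, was lowest in treated ATG7 KO cells (ENSG00000167468, chr19:1103926-1106791, plus strand). It was 81.3, 75.0 and 82.2 FPKM in WT cells at 0 h and 88.6, 87.2 and 85.2 after H2O2. The values in ATG7 KO cells were 111, 61.3 and 53.6 FPKM at 0 h and 55.9, 48.8 and 52.6 after H2O2. Every treated ATG7 KO library was below every WT library, and 1 untreated ATG7 KO library, replicate 1, was above them all. After H2O2, the level in ATG7 KO cells was 0.599-fold that in WT cells (log2 -0.74, SE 0.05, edgeR adjusted p = 2.63e-15). At 0 h the difference was -0.08 (SE 0.26, edgeR adjusted p = 0.846) with all libraries and -0.46 (adjusted p = 1.54e-16) without replicate 1. The H2O2 response was 0.13 in WT cells (SE 0.05, edgeR adjusted p = 0.0147) and -0.52 in ATG7 KO cells (SE 0.26, adjusted p = 0.146), the latter -0.14 (adjusted p = 0.00525) without replicate 1.

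Most genes around GPX4 were also lower in ATG7 KO than in WT cells. Among the 40 nearest tested genes on chromosome 19, within 0.901 Mb, 34 were lower in ATG7 KO than in WT cells after H2O2. Of the 40, 29 were called lower at an adjusted p under 0.01, against 27.9% of all genes tested. Their median log2 fold change was -0.69. GPX4 itself, at -0.74, ranked 20 of 41 from the lowest. For the other 9 glutathione genes, the median of the 40 neighbours in the same comparison lay between -0.23 for GSS and 0.25 for GCLC. GLRX ranked 4 of 41 from the lowest and GSR 35 of 41 among their neighbours. At 0 h, 34 of the 40 neighbours of GPX4 had a value below 0 in ATG7 KO against WT cells, with a median of -0.31. Of these neighbours 2 were called lower, against 3.28% of all genes tested. GPX4 itself, at -0.08 with all libraries, ranked 34 of 41 from the lowest at 0 h. This rank includes ATG7 KO replicate 1, without which GPX4 was at -0.46 (edgeR adjusted p = 1.54e-16). The neighbours were not examined without that library, so its rank there is not known.

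GPX3, a secreted selenoenzyme found in plasma, rose with H2O2 in WT cells and had a lower mean after H2O2 in ATG7 KO cells (ENSG00000211445, chr5:151020438-151028993, plus strand). In WT cells it was 0.871, 0.687 and 0.587 FPKM at 0 h and 1.98, 1.48 and 1.54 after H2O2. ATG7 KO cells held 2.66, 1.92 and 1.86 FPKM at 0 h and 1.05, 1.31 and 1.20 after H2O2. Untreated ATG7 KO cells were thus as high as treated WT cells, which they overlapped, and the treated groups did not overlap. GPX3 rose 2.32-fold with H2O2 in WT cells (log2 1.22, SE 0.21, edgeR adjusted p = 1.24e-06). In ATG7 KO cells the value was -0.86 (SE 0.19, edgeR adjusted p = 0.0110) with all libraries and -0.68 (adjusted p = 0.00109) without replicate 1 at 0 h. At 0 h, GPX3 was 2.99-fold higher in ATG7 KO than in WT cells (log2 1.58, SE 0.23, edgeR adjusted p = 0.00413), a call that held without ATG7 KO replicate 1 (1.41, adjusted p = 3.96e-09) and was lost in the other 5 fits that left out 1 library. After H2O2 the difference was -0.50 (SE 0.18, edgeR adjusted p = 0.0145). The difference of the responses was -2.07 (SE 0.29, edgeR adjusted p = 0.000389), and it passed in all 12 fits that left out 1 library, with a highest adjusted p of 0.00191.

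GPX8 and GPX7, peroxidases of the endoplasmic reticulum that carry cysteine in place of selenocysteine, did not move together. GPX8 (ENSG00000164294, chr5:55160118-55167071, plus strand) was 47.0, 41.6 and 48.8 FPKM in WT cells at 0 h and 28.4, 28.4 and 29.7 after H2O2. Its level in ATG7 KO cells was 42.7, 42.1 and 39.0 FPKM at 0 h and 28.3, 27.3 and 27.9 after H2O2. All treated libraries were below all untreated libraries in both genotypes. GPX8 fell with H2O2 in WT cells (log2 -0.67, SE 0.05, edgeR adjusted p = 2.75e-16) and in ATG7 KO cells (log2 -0.57, SE 0.08, adjusted p = 0.00163), the latter lost in 3 of the 6 fits that left out 1 library. The responses differed by 0.10 (95% interval -0.12 to 0.32, edgeR adjusted p = 0.470). Between genotypes at 0 h the GPX8 difference was -0.15 (SE 0.10, edgeR adjusted p = 0.318) with all libraries. Without ATG7 KO replicate 1 it was -0.17 (adjusted p = 0.00205). GPX7 (ENSG00000116157, chr1:52602372-52609051, plus strand) was 0.373, 0.643 and 0.566 FPKM in WT cells at 0 h, 0.523, 0.576 and 0.619 in WT cells after H2O2, 1.22, 1.03 and 0.799 in ATG7 KO cells at 0 h and 0.656, 1.12 and 0.886 in ATG7 KO cells after H2O2. Every ATG7 KO library was above every WT library, but no comparison passed: the difference was 0.93 at 0 h (SE 0.31, edgeR adjusted p = 0.0802) and 0.61 after H2O2 (SE 0.33, adjusted p = 0.0983).

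Summed over GPX1 to GPX8, peroxidase transcripts amounted to 197 ± 7.83 FPKM in WT cells at 0 h, 252 ± 3.53 in WT cells after H2O2, 213 ± 72.1 in ATG7 KO cells at 0 h and 204 ± 7.04 in ATG7 KO cells after H2O2 (SD, n = 3). The untreated ATG7 KO libraries ran from 165 to 296 FPKM, with replicate 1 highest and the other replicates at 179 and 165. In shares of the sum, GPX1 and GPX4 exchanged the first place, and GPX8 was below both in all 4 groups. GPX1 made up 35.6 ± 1.49% of it in WT cells at 0 h and 53.0 ± 1.02% after H2O2, and 43.0 ± 3.27% and 59.5 ± 0.582% in ATG7 KO cells. GPX4 made up 40.4 ± 0.620% and 34.6 ± 1.08% in WT cells, and 34.8 ± 2.52% and 25.7 ± 0.905% in ATG7 KO cells. GPX8 went from 23.3 ± 0.999% to 11.5 ± 0.145% in WT cells and from 20.6 ± 5.32% to 13.7 ± 0.251% in ATG7 KO cells, where replicate 1 at 0 h stood at 14.4% and the other replicates at 23.6 and 23.7%. Thus GPX4 had the largest share in WT cells at 0 h, and GPX1 had the largest share in the other 3 groups.

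**Figure D4:**
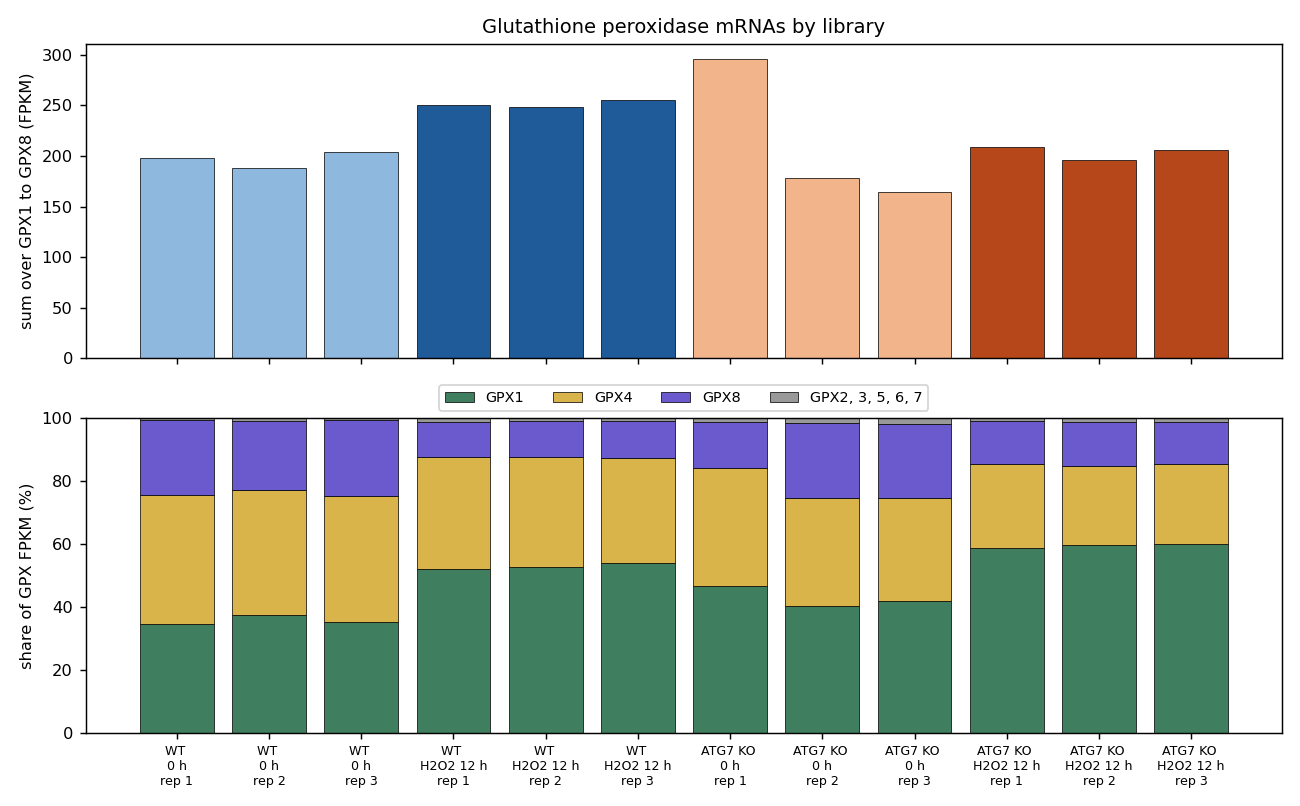
Upper panel: summed FPKM of GPX1 to GPX8 (y axis, from 0) in each of the 12 libraries. Lower panel: percent of that sum from GPX1, GPX4, GPX8 and the remaining peroxidases together, stacked to the whole. ATG7 KO replicate 1 at 0 h has the highest sum, 296 FPKM, and the share of GPX8 is smaller in every treated library than in every untreated library.

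GLRX, the cytosolic glutaredoxin, fell with H2O2 in ATG7 KO cells and stayed within the spread of the replicates in WT cells (ENSG00000173221, chr5:95751319-95823005, minus strand). In WT cells it was 1.73, 1.58 and 1.42 FPKM at 0 h and 1.60, 1.52 and 1.57 after H2O2. Its level in ATG7 KO cells was 2.68, 1.82 and 1.96 FPKM at 0 h and 1.09, 0.832 and 1.16 after H2O2. The WT groups overlapped, all untreated ATG7 KO libraries were above them and all treated ATG7 KO libraries were below them. The H2O2 response was -0.01 in WT cells (95% interval -0.26 to 0.23, edgeR adjusted p = 0.924) and -1.07 in ATG7 KO cells (SE 0.20, adjusted p = 0.00518), the latter -0.89 (adjusted p = 2.22e-09) without replicate 1 at 0 h and past the threshold in 2 of the 6 fits that left out 1 library. After H2O2, GLRX was lower in ATG7 KO than in WT cells (log2 -0.61, SE 0.13, edgeR adjusted p = 0.000188), a call lost when all 12 libraries shared 1 fit (-0.60, adjusted p = 0.0110). At 0 h the difference was 0.45 (SE 0.17, edgeR adjusted p = 0.122), and 0.27 (adjusted p = 0.0755) without ATG7 KO replicate 1. The difference of the responses was -1.05 (SE 0.23, edgeR adjusted p = 0.00548), and it lost the threshold in 8 of the 12 fits that left out 1 library.

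GLRX lies within the span of RHOBTB3, a gene on the opposite strand with 1146 to 7101 reads per library. The exons of the genes share 0 of the 6508 exonic bases of GLRX in GENCODE 29, but the strand setting of the counting is not given in the sources used here, and without strand reads from introns of RHOBTB3 cannot be told apart from reads of GLRX. RHOBTB3 was 38.9 FPKM in WT cells at 0 h, 15.3 in WT cells after H2O2, 39.3 in ATG7 KO cells at 0 h and 7.84 in ATG7 KO cells after H2O2. Its H2O2 response was -1.35 in WT cells, where the value of GLRX was -0.01, and -2.33 in ATG7 KO cells, where GLRX fell, and the difference of its responses was -0.98 (edgeR adjusted p = 0.000311). HSPD1P11, a processed pseudogene, also overlaps GLRX on the opposite strand, with 3 to 68 reads per library and 17.1% of the reads of GLRX over all libraries. The part of RHOBTB3 or HSPD1P11 reads in the GLRX values was not tested.

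Whether the genotypes responded differently to H2O2 was tested in 1 fit of all 12 libraries. Of the 10 genes, 2 passed, GPX3 and GLRX, both with a lower response in ATG7 KO cells, against 14.0% of 16856 genes tested (7.02% higher, 7.01% lower). Without ATG7 KO replicate 1 at 0 h, 5 passed, against 34.1% of 17543 genes tested (17.8% higher, 16.3% lower): the responses of GSS (0.35, adjusted p = 6.35e-05) and GSR (0.48) were higher in ATG7 KO cells, and those of GPX3 (-1.89), GPX4 (-0.26, adjusted p = 0.0017) and GLRX (-0.86) were lower. GPX1 had a difference of -0.55 with all libraries (SE 0.28, edgeR adjusted p = 0.151) and -0.14 without that library (adjusted p = 0.0669). With all libraries the difference was 0.18 for GCLC (95% interval -0.09 to 0.46, edgeR adjusted p = 0.282), -0.65 for GPX4 (SE 0.28, adjusted p = 0.0945) and 0.13 for GSS (SE 0.18, adjusted p = 0.589).

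**Figure D5:**
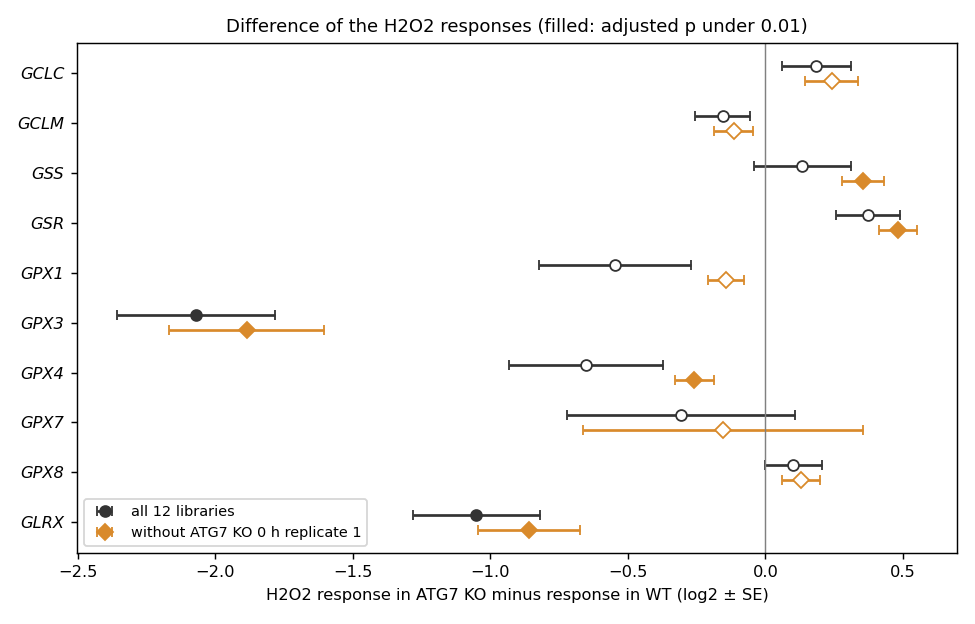
H2O2 response in ATG7 KO cells minus that in WT cells (x axis, log2 ± SE) of each of the 10 genes (y axis), in all 12 libraries (circles) and without ATG7 KO replicate 1 at 0 h (diamonds), filled at an adjusted p under 0.01. GPX3 and GLRX are filled in both sets, and GPX1 and GPX4 move toward 0, from -0.55 to -0.14 and from -0.65 to -0.26, when the library is left out.

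Across the 12 libraries, GCLM, GSR and GCLC followed each other (Pearson r of log2 counts scaled to library size 0.952 for GCLM and GSR, 0.930 for GCLC and GSR, and 0.926 for GCLC and GCLM). The libraries share 4 groups and 1 line, so these are descriptions. Among 12549 other genes with a mean of at least 1 FPKM, the single gene most like each was IL1B for GCLM (r = 0.993), FUCA1 for GSR (0.995), PKIA for GCLC (0.980), LUC7L for GSS (0.946), GOLGA7 for GPX1 (0.988), IGFBP7 for GPX3 (0.935), ENO1 for GPX4 (0.979), E4F1 for GPX7 (0.935), ACTR2 for GPX8 (0.992) and LRRC49 for GLRX (0.975), each over 12 libraries.

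The genes that feed, drain and assist the glutathione system were examined as 5 lists with 61 genes in all. After H2O2 in WT cells 38 of the 55 tested genes changed, 21 up and 17 down, beside 61.0% of all genes, and in ATG7 KO cells 16 of 56, 8 up and 8 down, beside 26.0%. ATG7 KO and WT cells differed in 6 of 56 at 0 h, 3 in each direction, beside 7.70% of all genes, and in 39 of 55 after H2O2, 18 higher and 21 lower in ATG7 KO cells, beside 55.6%. The counts of the separate lists are to be read against the same shares. Medians of the log2 fold changes, in the same order, were 0.04, -0.10, 0.17 and -0.05, beside medians of all genes between -0.03 and 0.01. Without ATG7 KO replicate 1 at 0 h the counts were 35 for H2O2 in ATG7 KO cells and 31 for the genotypes at 0 h, where 58.4% and 36.2% of all genes passed, and the medians of the lists were 0.01 and -0.02.

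Of 12 genes that supply cysteine and glutamate, 9 changed with H2O2 in WT cells, 7 up and 2 down, and 9 differed between the genotypes after H2O2, 2 higher and 7 lower in ATG7 KO cells. SLC7A11, which imports cystine in exchange for glutamate, was 13.6, 12.5 and 12.7 FPKM in WT cells at 0 h, 21.2, 21.9 and 17.2 in WT cells after H2O2, 6.12, 8.48 and 9.97 in ATG7 KO cells at 0 h and 10.4, 11.1 and 9.78 in ATG7 KO cells after H2O2. It rose with H2O2 in WT cells (log2 0.63, SE 0.08, edgeR adjusted p = 2.59e-05) and not past the threshold in ATG7 KO cells (0.34, SE 0.18, adjusted p = 0.168), where the value was smaller but passed without replicate 1 at 0 h (0.16, adjusted p = 0.0048). After H2O2 it was lower in ATG7 KO than in WT cells (log2 -0.95, SE 0.11, edgeR adjusted p = 0.000400), the opposite direction to GCLC, GCLM and GSR. At 0 h the genotype difference did not pass with edgeR on these groups. It was -0.48 (edgeR adjusted p = 2.51e-15) without ATG7 KO replicate 1, and DESeq2 on all replicates gave -0.65 (adjusted p = 0.00733). SLC7A11 was lower in every untreated ATG7 KO library than in every untreated WT library. Its partner chain SLC3A2 rose 3.34-fold in WT cells (log2 1.74, SE 0.06, edgeR adjusted p = 4.10e-21). The mean of SLC3A2 in ATG7 KO cells went from 17.9 FPKM at 0 h to 30.4 after H2O2. SLC1A1, a carrier of glutamate and cysteine, fell with H2O2 in WT cells (log2 -1.38) and in ATG7 KO cells (log2 -1.75) and was lower in ATG7 KO than in WT cells after H2O2 (log2 -1.38). SLC1A4, a neutral amino acid carrier, rose with H2O2 in WT cells (log2 0.92, SE 0.06, edgeR adjusted p = 8.05e-18) and in ATG7 KO cells (log2 1.80, SE 0.15, adjusted p = 0.000177). CBS of the transsulfuration route was lower in ATG7 KO than in WT cells at 0 h (log2 -1.96), a call that was lost in all 6 fits that left out 1 library (adjusted p from 0.0109 to 0.0515), in 1 fit of all 12 libraries and with limma.

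Among 16 genes of glutathione breakdown and export, 13 or 14 were tested in each comparison. CHAC1, which degrades glutathione in the cytosol, rose with H2O2 in WT cells from 2.87, 3.67 and 3.39 to 8.31, 9.69 and 6.58 FPKM (log2 1.29, SE 0.13, edgeR adjusted p = 6.97e-12). ATG7 KO cells went from 1.36, 0.954 and 0.787 to 2.44, 2.60 and 3.22 FPKM (log2 1.42, SE 0.24, edgeR adjusted p = 0.00323). ATG7 KO cells held less CHAC1 than WT cells at 0 h (log2 -1.69, adjusted p = 0.00357) and after H2O2 (log2 -1.57, adjusted p = 2.83e-11). The CHAC1 rise in ATG7 KO cells and the difference at 0 h were each lost in 5 of the 6 fits that left out 1 library, held without ATG7 KO replicate 1 at 0 h, and were lost with a replicate block (adjusted p = 0.0102 and 0.0144). ANPEP, an aminopeptidase of the cell surface that cleaves cysteinylglycine, was 5.62-fold higher in ATG7 KO than in WT cells after H2O2 (log2 2.49, SE 0.06, edgeR adjusted p = 4.45e-26), and it fell with H2O2 in WT cells (log2 -0.71). Its mean in ATG7 KO cells went from 43.6 FPKM at 0 h to 29.1 after H2O2. ANPEP was already higher in ATG7 KO cells at 0 h, at 35.7 to 48.9 FPKM against 8.35 to 8.44 in WT cells. GGT1, the transferase that opens extracellular glutathione, rose with H2O2 from 0.191 to 1.71 FPKM in WT cells, where it began at 4 to 29 reads per library, and from 0.836 to 2.87 FPKM in ATG7 KO cells (log2 1.77, SE 0.13). ABCC4, an exporter, rose with H2O2 in WT cells (log2 0.27) and in ATG7 KO cells (log2 1.08, SE 0.18, edgeR adjusted p = 0.0032), the latter lost without any 1 of the treated ATG7 KO libraries. GGT5 stood at 0 to 2 reads per WT library and 12 to 14 reads per ATG7 KO library at 0 h, a difference that lost the threshold in 5 of the 6 fits that left out 1 library.

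Of 10 other peroxidases, glutaredoxins and related thiol enzymes, 7 were tested, and GPX2, GPX5 and GPX6 were not. All 4 that differed between the genotypes after H2O2 were lower in ATG7 KO cells, with ETHE1 at log2 -1.08 (SE 0.11) and ESD at -0.24 (SE 0.06), the call for ESD being lost in 3 of the 6 fits that left out 1 library, in 1 fit of all 12 libraries, with limma and with the correction for gene length. GLRX3 rose with H2O2 in WT cells (log2 0.60, SE 0.05) and ESD fell (-0.20, SE 0.06), with overlapping groups and a call lost in 4 of the 6 fits that left out 1 library, with DESeq2 (adjusted p = 0.0202), with limma and in 1 fit of all 12 libraries. HAGH, which releases glutathione from lactoylglutathione, fell in ATG7 KO cells (log2 -0.99, SE 0.19, edgeR adjusted p = 0.00555), a call lost in 4 of the 6 fits that left out 1 library and with limma on log2(FPKM + 1). Among 11 genes of selenoprotein synthesis, which GPX1, GPX3 and GPX4 need, 8 changed with H2O2 in WT cells (3 up, 5 down) and 8 differed after H2O2 between genotypes (4 each way). EEFSEC, the elongation factor that brings selenocysteine to the ribosome, fell with H2O2 in ATG7 KO cells (log2 -1.28, SE 0.16, edgeR adjusted p = 0.00084) and was lower in them than in WT cells after H2O2 (-1.01, SE 0.15, adjusted p = 6.53e-07). In WT cells the mean of EEFSEC also went down, from 5.41 FPKM at 0 h to 3.34 after H2O2. SEPHS1 fell with H2O2 in WT cells (log2 -0.69) and in ATG7 KO cells (log2 -0.55), the latter lost in 5 of the 6 fits that left out 1 library, with limma and with a replicate block. RPL30 rose in WT cells (0.61) and LRP8, a receptor for selenoprotein P, fell in WT cells (-0.96). The mean of LRP8 in ATG7 KO cells went from 5.44 FPKM at 0 h to 2.58 after H2O2. SCLY was higher in treated ATG7 KO than treated WT cells (0.79), at means of 0.412 and 0.236 FPKM, a call lost with limma (adjusted p = 0.0108 and 0.0135).

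Of 12 genes listed under NADPH supply, 9 changed with H2O2 in WT cells (4 up, 5 down) and 4 in ATG7 KO cells (2 up, 2 down). Between genotypes after H2O2, 7 of them differed (5 higher, 2 lower in ATG7 KO). The list is from general knowledge, and whether each enzyme makes NADPH that GSR uses was not tested. MTHFD2, a mitochondrial folate enzyme, rose 3.36-fold in WT cells (log2 1.75, SE 0.05) and 3.18-fold in ATG7 KO cells (log2 1.67, SE 0.12), and was lower in treated ATG7 KO than treated WT cells (-0.37, SE 0.04). NNT, the transhydrogenase of mitochondria, fell with H2O2 in WT cells (log2 -0.78, SE 0.05), and its mean in ATG7 KO cells went from 16.3 to 12.7 FPKM. IDH1, the cytosolic isocitrate dehydrogenase, fell with H2O2 in ATG7 KO cells (log2 -1.76, SE 0.17, edgeR adjusted p = 0.000359). Its mean in WT cells also went down, from 4.14 FPKM at 0 h to 2.60 after H2O2. TKT of the pentose phosphate pathway was higher in treated ATG7 KO than treated WT cells (log2 0.47, SE 0.03, edgeR adjusted p = 6.55e-14).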

How the data were processed

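Total RNA of 12 HLE-B3 libraries (4 groups of 3, grouped by the labels) was sequenced by the authors with a NEBNext Ultra RNA kit. The deposited counts are whole numbers of reads per gene, made with HISAT2 2.0.5 and featureCounts 1.5.0-p3 on GRCh38 per the submitters' processing notes. How strand and multi-mapping reads were handled is not given in the sources used here, so overlapping genes and near-identical copies can share reads, and isoforms are summed. The authors also deposited FPKM, which tracked those counts: count over gene length over library total, times 1 factor per library between 0.949 and 1.02. Library totals had a median of 17205174 reads.

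Counts were analysed with edgeR 4.0.16 in R 4.3.3 (filterByExpr with a minimum count of 10, TMM scaling, robust quasi-likelihood fit). Group comparisons were each fitted on 6 libraries with no covariate, and the difference of the H2O2 responses was an interaction in all 12. The study's methods name DESeq2 for pairs of groups at an adjusted p under 0.01, a log2 fold change beyond 1 and FPKM over 1. With edgeR and these limits (mean FPKM of at least 1 group), 1 of the 10 genes passed for H2O2 in WT and 2 in ATG7 KO cells. Between genotypes 1 passed at 0 h and 0 after H2O2, and 2 passed for the difference of responses. Of all genes tested, 12.5, 11.2, 3.50, 7.46 and 5.17% passed in the same order. DESeq2 1.42.0 and limma 3.58.1 on log2(FPKM + 1) and log2(FPKM + 0.1) were alternatives, beside RLE scaling, no filter, thresholds of 0.05 and 0.001, 1 fit of all libraries, a correction for gene length (a loess of span 0.3), a replicate block and leaving out each library. Standard errors are the absolute log2 fold change over the root of F. The scripts were tested on simulated data.

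The 10 genes, the 5 pathway lists (61 genes, from general knowledge), the marker lists and the alternatives were chosen with earlier results of these data known. Beside the 10 genes, SLC7A11 and CHAC1 are named, and from each list the gene with the highest and lowest log2 fold change among those past the threshold in each comparison of groups, except that some genes counted in the lists are not reported here by name. The pathway genes whose responses differed between genotypes, the genes around GPX4, the marker values, RHOBTB3 and HSPD1P11 were chosen for mention after their values were seen. Likeness is Pearson's r of log2 CPM (prior count 2) over 12 libraries, and neighbours are the 20 nearest tested genes on each side. Whether libraries with the same replicate number were prepared together is not stated in the labels. Deviations from the group means of libraries with the same number correlated between -0.0429 and 0.0976, which cannot decide it. No libraries of a group agreed within sampling noise. Upstream sequences are those of RefSeq (GRCh38.p14).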

Additional observations from a re-analysis of the deposited data

Results flagged for a closer look

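The H2O2 responses of ATG7 KO and WT cells differed for 2 of the 10 glutathione genes by the interaction test in all 12 libraries. For GPX3 the difference was -2.07 (log2, SE 0.29, edgeR adjusted p = 0.000389), with all 3 treated WT libraries above all untreated WT libraries and all 3 treated ATG7 KO libraries below all untreated ones. For GLRX it was -1.05 (SE 0.23, edgeR adjusted p = 0.00548), with overlapping WT groups and all 3 treated ATG7 KO libraries below all untreated ones, and it was past the threshold in 4 of the 12 fits that left out 1 library.

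Among the 56 pathway genes tested, 9 had responses that differed between the genotypes, 3 higher and 6 lower in ATG7 KO cells, beside 14.0% of all genes, and the 8 described here are named after their values were seen. Lower responses in ATG7 KO cells included those of SLC3A2, the chain that partners SLC7A11 (-0.98, edgeR adjusted p = 0.00157), SLC25A22, a mitochondrial glutamate carrier (-0.70, adjusted p = 0.00144), HAGH (-1.06, adjusted p = 0.00313), RPL30 (-0.81, adjusted p = 0.00663) and IDH1 (-1.08, adjusted p = 0.00235). A lower response can be a smaller rise or a larger fall. Mean IDH1 went from 4.14 to 2.60 FPKM in WT cells and from 7.23 to 2.14 in ATG7 KO cells. Mean HAGH went from 5.29 to 5.56 FPKM in WT cells and from 6.92 to 3.49 in ATG7 KO cells. Higher responses were those of SLC1A4 (0.88, edgeR adjusted p = 0.00192), ABCC4 (0.81, adjusted p = 0.00815) and SECISBP2L (0.84, adjusted p = 0.00325). SLC3A2, SLC1A4, SLC25A22 and IDH1 passed in all 12 fits that left out 1 library, while ABCC4 and RPL30 each lost the threshold in 9 of them, SECISBP2L in 4 and HAGH in 2. CHAC1, with a difference of 0.12 (edgeR adjusted p = 0.776), and SLC7A11, with -0.29 (adjusted p = 0.304), did not pass. Without ATG7 KO replicate 1 at 0 h these were 0.37 (edgeR adjusted p = 0.261) and -0.46 (adjusted p = 0.0532).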

How the results depend on the processing

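In WT cells, 6 of the 10 genes passed in every fit that left out 1 library. In the other comparisons single libraries decided several calls. Leaving out 1 library gave 2 to 9 genes for H2O2 in ATG7 KO cells, 0 to 6 for ATG7 KO against WT cells at 0 h, 6 to 7 after H2O2 and 1 to 5 for the difference of responses, the highest count being without ATG7 KO replicate 1 at 0 h wherever it was in the fit. The lowest count came without any of the treated libraries for H2O2 in ATG7 KO cells, without any WT library or ATG7 KO replicate 3 for the genotypes at 0 h, and without any WT library or treated ATG7 KO replicate 1 or 2 for the difference. Pathway genes past the threshold ranged over 34 to 40, 10 to 35, 1 to 31, 31 to 37 and 6 to 24 in the same order, from H2O2 in WT cells on. The log2 ratio of GCLC to GCLM ranged over -0.65 to -0.50 and -0.27 to -0.20 for H2O2 in WT and ATG7 KO cells, and over -0.41 to -0.34 and -0.12 to 0.03 between genotypes at 0 h and after H2O2.

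At an adjusted p under 0.001, 2 of the 10 genes and 9 pathway genes passed for H2O2 in ATG7 KO cells, 0 and 2 between genotypes at 0 h, and 1 and 1 for the difference of responses. At 0.05, 17 pathway genes passed at 0 h and 19 for the difference, and with DESeq2 these were 17 and 16. In 1 fit of all 12 libraries, 24 pathway genes passed for H2O2 in WT cells, 19 at 0 h and 21 after H2O2, where 4 of the 10 genes passed. Without the filter on low counts, 4 of the 10 genes and 14 pathway genes passed for the difference, with GPX1 (-0.52) and GPX4 (-0.63) added, and this setting took the median of all genes from -0.00535 to 0.201 in WT cells. With the correction for gene length, 16 pathway genes passed at 0 h.

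Labels share replicate numbers, and whether these pair the samples is not stated. With a replicate block, 1 of the 10 genes and 3 pathway genes passed between genotypes at 0 h, with GCLM (adjusted p = 0.0173) lost, and GCLC (adjusted p = 0.0186) was lost for H2O2 in ATG7 KO cells.

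Direction turned for values that had not passed, with 1 exception. For H2O2 in WT cells GSS turned to -0.0163 without the filter, and the length correction turned GPX4 to -0.0468, GPX7 to -0.0812 and GLRX to 0.0861. That correction also turned GCLC to -0.0876 and GPX7 to 0.0262 in the difference of responses, and GPX1, which had passed, to 0.0397 between genotypes after H2O2. Leaving out 1 library moved GSS over -0.0283 to 0.0436, GPX7 over -0.0986 to 0.268 and GLRX over -0.0963 to 0.0412 for H2O2 in WT cells, and GSS over -0.149 to 0.160 and GPX4 over -0.461 to 0.112 between genotypes at 0 h. CHAC1 ranged over -0.0325 to 0.365 in the difference of responses, where limma on log2(FPKM + 1) gave -0.193. GCLC for H2O2 in WT cells missed the threshold with limma (adjusted p = 0.0151 and 0.0145) and in 1 fit of all 12 libraries (0.0124). GPX3 for H2O2 in ATG7 KO cells passed with DESeq2 (adjusted p = 0.00183). The cause of these changes was not tested.

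Depth limits GPX7 most, with 11 to 34 reads per library: its 95% interval for H2O2 in WT cells ran from -0.64 to 0.85, so that changes within it were not detectable. With 3 libraries against 3, the exact test of the ratio could not pass a threshold, and its p of 0.1 says nothing about stability.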
